A study of Mus musculus with 6 samples.

Results

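The secreted factors described here were 10 genes of the 21436 in the deposited table: the vascular endothelial growth factors Vegfa, Vegfb, Vegfc and Vegfd with placental growth factor (Pgf), angiopoietin 1 (Angpt1), the angiopoietin-like genes Angptl2 and Angptl4, and the thrombospondins Thbs1 and Thbs2. They were picked out by gene symbol, as secreted regulators of vessel growth. RNA sequencing had been carried out on 3T3-L1 cells, a mouse embryonic fibroblast line used as a model of preadipocytes. In the co-culture group, 3 libraries, wild-type 3T3-L1 cells lay in the lower chamber of a Transwell, and human umbilical cord mesenchymal stem cells were kept above them, behind a membrane of 0.4 µm pores. In the alone group, also 3 libraries, the same line was kept without stem cells. Both groups stayed for 72 h in an adipogenic medium that held 2 µM rosiglitazone, a ligand of PPAR-gamma, 1 µM dexamethasone, a glucocorticoid, 0.5 mM IBMX, which raises cyclic AMP, and 10 mg/L insulin. Serum was listed at 10% for both groups. The alone cells are therefore hormone-treated cells, not untreated fibroblasts. Nothing in the labels says whether replicates were separate cultures, so the p-values measure the spread between these libraries, which may be technical.

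VEGFA drives the growth and permeability of blood vessels through receptor tyrosine kinases on endothelial cells, and VEGFC and VEGFD act mainly on lymphatic vessels. Angiopoietin 1 stabilises vessels through the receptor Tie2 (gene Tek). Thrombospondins are large matrix glycoproteins that restrain endothelial growth, in part through the receptors CD36 and CD47. In adipose tissue, fat cells and their precursors secrete these proteins, and the vasculature grows and regresses with the fat depot. ANGPTL4 also inhibits lipoprotein lipase, the enzyme that releases fatty acids from circulating triglyceride.

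Library totals were 29603755 to 37612585 fragments in co-culture and 36119750 to 38357563 alone. All 7 endothelial markers analysed stayed below 1 FPKM (fragments per kilobase of transcript, relative to all fragments of that library) in every library, with sums of 0.171 to 0.341 FPKM in co-culture and 0.202 to 0.313 FPKM alone. All 10 fibroblast and preadipocyte markers lay above 1 FPKM, with sums of 2718 to 2740 FPKM in co-culture and 2648 to 2674 FPKM alone. Within that sum Pdgfra, Pdgfrb, Dlk1 and Ly6a were called higher, Col3a1, Thy1 and Dcn were called lower, and Col1a1, Col1a2 and Lum were not called. Of 7 adipocyte markers, Fabp4 alone reached 1 FPKM, with 58.2 ± 0.74 FPKM in co-culture and 53.4 ± 3.04 FPKM alone (SD, n = 3 each), and was not called. The other 6, Adipoq, Plin1, Pparg, Cebpa, Cidec and Cfd, stayed below 1 FPKM in every library of both groups. Of 7 pericyte and smooth muscle markers, 3 reached 1 FPKM, and their sums were 284 to 295 FPKM in co-culture and 180 to 198 FPKM alone. Nearly all of each sum was Acta2, with 276.7 to 288.4 FPKM in co-culture and 175.2 to 193.5 FPKM alone. Tagln was 6.05 ± 0.85 FPKM in co-culture and 3.72 ± 0.10 FPKM alone (SD, n = 3 each), Des was not called, and Rgs5, Cspg4, Myh11 and Cnn1 were below the filter and not called. The part of that difference in the results below was not tested. In bulk RNA, fewer cells of a type and less RNA per cell cannot be told apart.

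The genes lie on 7 chromosomes of the mouse (RefSeq annotation of GRCm38.p6). Vegfa occupies chr17:46016993-46032377 on the minus strand, Angpt1 chr15:42424667-42676977 on the minus strand, Angptl2 chr2:33215951-33247725 on the plus strand and Thbs2 chr17:14665500-14694262 on the minus strand. Exons of Angpt1 overlap those of the antisense gene Gm17473, and exons of Thbs1 overlap those of the antisense gene Gm29233, neither of which was analysed here. Angptl2 lies within introns of Ralgps1 on the opposite strand, and the exons of this pair do not overlap. Whether the authors' counting used strand is not given in the sources used here. Reads in the shared exon stretches of Angpt1 and Thbs1 may therefore include some of their antisense genes.

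Promoter entries (RefSeq, GRCm38.p6) were found for 7 of the 10 genes: Vegfa, Vegfb, Vegfc, Vegfd, Pgf, Angptl2 and Thbs2. The sequences of Vegfa, Angptl2 and Thbs2 are shown because transcripts of these genes changed in co-culture, Angptl2 upward and the other 2 downward. Each is the 250 bases before the table's start site, 5′ to 3′ on the gene's strand. Capitals mark matches, on either strand, to the GC box, which reads GGGCGG, and to the TATA box, which reads TATAAA.
Vegfa, chr17:46032378-46032627, minus strand: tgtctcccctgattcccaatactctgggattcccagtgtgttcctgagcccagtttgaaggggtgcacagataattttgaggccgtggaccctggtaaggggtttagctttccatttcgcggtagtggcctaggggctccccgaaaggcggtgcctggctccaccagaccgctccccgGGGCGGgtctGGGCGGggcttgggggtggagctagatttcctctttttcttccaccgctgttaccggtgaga
Angptl2, chr2:33215711-33215960, plus strand: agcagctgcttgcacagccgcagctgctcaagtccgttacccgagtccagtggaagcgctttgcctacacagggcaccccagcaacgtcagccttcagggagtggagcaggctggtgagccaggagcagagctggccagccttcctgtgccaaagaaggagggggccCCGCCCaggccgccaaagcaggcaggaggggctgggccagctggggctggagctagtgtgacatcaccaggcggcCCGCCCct
Thbs2, chr17:14694263-14694512, minus strand: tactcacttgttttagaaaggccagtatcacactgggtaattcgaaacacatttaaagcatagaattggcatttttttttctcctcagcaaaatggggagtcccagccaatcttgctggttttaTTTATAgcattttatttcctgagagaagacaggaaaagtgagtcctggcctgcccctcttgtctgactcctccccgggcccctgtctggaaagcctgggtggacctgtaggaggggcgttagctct
The Vegfa and Angptl2 windows each held 2 GC boxes, and the Thbs2 window held none and 1 TATAAA match. GC content was 59.2% for Vegfa, 66.8% for Angptl2 and 46.8% for Thbs2, against a median of 52.4% over 32851 promoters. Of the 7 genes, 5 held a GC box (Vegfa, Vegfb, Vegfc, Pgf and Angptl2), which 32.7% of all promoters held. The other 2, Vegfd and Thbs2, held the TATA box, found in 12.4% of all promoters. The hypoxia response core GCGTG was present in Vegfb and Pgf and in 28.2% of all promoters. The other core, ACGTG (16.6% of all promoters), the cyclic AMP element TGACGTCA (1.55%) and the AP-1 motif TGANTCA (6.75%) had no match in the 7 windows. All motifs were searched on both strands, and none of the matches marked in the 3 sequences overlapped another. Only these 250 bases of each gene were searched. A missing match therefore says nothing of elements farther upstream, the hypoxia response core included.

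The 3′ untranslated regions (longest GENCODE M21 transcript of each gene) were searched for the nonamer TTATTTATT, an AU-rich element bound by the Zfp36 family of RNA-decay proteins. It occurred once each in Vegfa, Thbs1 and Thbs2, that is in 3 of 10 genes, against 8.09% of 9605 tested genes with such a region. These 3 regions were 1865, 2104 and 2013 bases long, against a median of 1379 over those tested genes. The shares were not adjusted for length. The 30 bases around each site are shown because Zfp36 transcripts differed between the groups, as given further on, and capitals mark the nonamer.
Vegfa, chromosome 17: ttgttatcatTTATTTATTggtgctactgt
Thbs1, chromosome 2: taaatacagaTTATTTATTaaccctgttct
Thbs2, chromosome 17: ttgtaaatatTTATTTATTtgttcattggg
The shorter pentamer ATTTA occurred 9 times in Vegfa, 10 times in Thbs2, 7 times in Angpt1 and 6 times in Thbs1, and not at all in Vegfb and Angptl2. The pentamer occurred at least once in 8 of the 10 genes and in 71.6% of tested genes. Of the 3 genes with the nonamer, Vegfa and Thbs2 fell and Thbs1 did not pass the test, with values given below.

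Of the 10 genes, 9 averaged 1 FPKM or more across the libraries and entered the fit with all 10055 such genes, and Pgf did not. A gene was called at an adjusted p below 0.05 (limma on log2(FPKM + 1), Benjamini-Hochberg over all tested genes). In co-culture 1 of the 9 was higher (Angptl2), 3 were lower (Vegfa, Angpt1 and Thbs2), and 5 did not pass the test. Over all tested genes 31.8% were called, 13.9% higher and 17.9% lower. The genes moved little in size: ratios of mean FPKM, co-culture over alone, lay between 0.776 and 1.28. The median log2 change was 0.05 over the 9 genes and −0.0037 over all tested genes. The library values were close within groups, with coefficients of variation of at most 7.94%.

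The 10 genes differed widely in level. In co-culture the order of mean FPKM was Angptl4, Thbs1, Vegfa, Thbs2, Angpt1, Angptl2, Vegfd, Vegfc, Vegfb and Pgf. In cells alone Vegfa stood above Thbs1, and the other 8 kept their places. The libraries of neighbours in this order overlapped for Thbs1 and Vegfa in co-culture and for Thbs1 and Thbs2 alone, and for no other neighbours. Among the 10055 tested genes Angptl4 ranked 177 by level in co-culture and 181 alone, so this lipase inhibitor was among the more abundant transcripts in both groups.

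**Figure D1:**
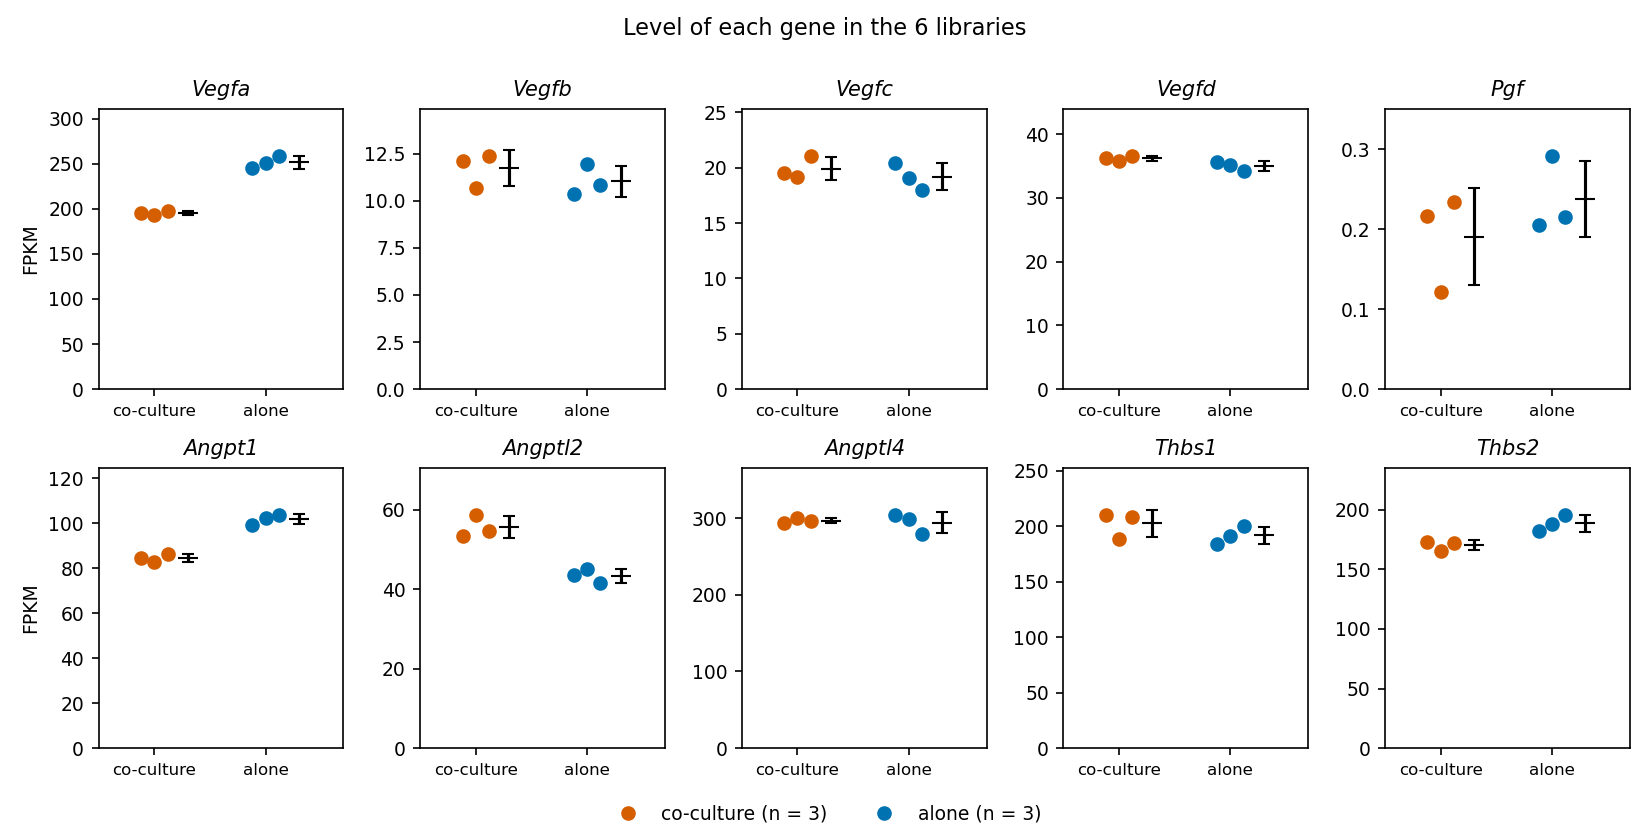
FPKM of the 10 genes in each library, each gene in its own panel with its own linear axis, and co-culture left of alone. Points are libraries and bars are means with SD (n = 3 per group). Vegfa, Angpt1 and Thbs2 lie lower in co-culture with no overlap, and Angptl2 lies higher with no overlap. Vegfd also lies higher with no overlap, by a narrow gap, and was not called. Pgf lies near 0.2 FPKM in both groups.

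Vegfa, the main growth factor for blood vessels, had 195.4, 193.3 and 197.7 FPKM in the co-culture libraries, against 245.1, 250.9 and 259.1 FPKM alone. Every co-culture library lay below every library of cells alone, and the 3 co-culture values were within a few FPKM of each other. Vegfa averaged 195.4 ± 2.20 FPKM in co-culture and 251.7 ± 7.03 FPKM alone (SD, n = 3 each), 1.29-fold lower. The log2 change was −0.36 ± 0.03 (SE; 95% interval −0.44 to −0.29; limma, Benjamini-Hochberg adjusted p = 3.73e-05). These values rest on 24139 to 30795 reads per co-culture library and 37827 to 41487 reads per library alone. Among all tested genes, 5.36% changed by at least as much in either direction.

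The other blood and lymphatic growth factors of the family did not pass the test. Vegfb, which has been tied to fatty acid handling in muscle and heart, had 12.1, 10.7 and 12.4 FPKM in co-culture and 10.4, 11.96 and 10.8 FPKM alone. The groups overlapped, and the log2 change was 0.08 (95% interval −0.06 to 0.22; limma, Benjamini-Hochberg adjusted p = 0.378). Vegfc, a growth factor for lymphatic vessels, had 19.5, 19.2 and 21.1 FPKM in co-culture and 20.4, 19.1 and 18.0 FPKM alone. These groups overlapped too, with a log2 change of 0.05 (95% interval −0.07 to 0.17; limma, Benjamini-Hochberg adjusted p = 0.481). The intervals of both genes exclude a decrease of the size measured for Vegfa.

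Vegfd, the second lymphatic growth factor, had 36.2, 35.8 and 36.6 FPKM in co-culture and 35.6, 35.2 and 34.2 FPKM alone. All co-culture libraries lay above those of cells alone, but by a narrow gap, and the gene was not called: its log2 change was 0.05 (95% interval −0.03 to 0.13; limma, Benjamini-Hochberg adjusted p = 0.309). Groups failed to overlap in 46.1% of tested genes, 21.3% with co-culture higher and 24.8% with co-culture lower, and in 5 of the 9 tested factors. Pgf, a ligand of the receptor VEGFR1, was near the limit of detection, with 14, 10 and 19 reads in co-culture and 17, 23 and 18 reads alone. Its level was 0.191 ± 0.0602 FPKM in co-culture and 0.238 ± 0.0474 FPKM alone (SD, n = 3 each). In the fit without a filter its adjusted p was 0.564 (limma, Benjamini-Hochberg), and a difference was not detectable at this depth.

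Vegfa made up most of the family's transcripts per length in both groups. Its share of the summed FPKM of the 5 family genes was 74.2%, 74.6% and 73.7% in co-culture and 78.6%, 79.0% and 80.4% alone. The groups did not overlap. Vegfd held 13.7% in co-culture and 11.03% alone, and Vegfc held 7.56% in co-culture and 6.05% alone. Vegfb held 4.45% in co-culture and 3.49% alone, and Pgf 0.0722% in co-culture and 0.0749% alone. The summed FPKM of the family was 263.5 ± 4.51 in co-culture and 317.2 ± 5.31 alone (SD, n = 3 each).

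Angpt1, the Tie2 ligand that stabilises vessels, had 84.7, 82.7 and 86.3 FPKM in co-culture and 99.3, 102.3 and 103.9 FPKM alone. All co-culture libraries were lower. The means were 84.6 ± 1.77 FPKM in co-culture and 101.8 ± 2.33 FPKM alone (SD, n = 3 each), 1.204-fold lower. The log2 change was −0.26 ± 0.03 (SE; 95% interval −0.34 to −0.19; limma, Benjamini-Hochberg adjusted p = 0.000313).

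Angptl2, a secreted glycoprotein that binds integrin alpha-5 beta-1 and is known as a pro-inflammatory and pro-angiogenic factor of adipose tissue, went the other way. It had 53.4, 58.8 and 54.7 FPKM in co-culture and 43.5, 45.1 and 41.6 FPKM alone. No library of cells alone reached the lowest co-culture library. The means were 55.6 ± 2.80 FPKM in co-culture and 43.4 ± 1.78 FPKM alone (SD, n = 3 each), 1.28-fold higher. The log2 change was 0.35 ± 0.05 (SE; 95% interval 0.25 to 0.45; limma, Benjamini-Hochberg adjusted p = 0.000301).

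Angptl4 had 293.8, 299.7 and 296.4 FPKM in co-culture and 304.5, 298.8 and 278.6 FPKM alone. The co-culture values fell inside the range of cells alone. The log2 change was 0.01 (95% interval −0.07 to 0.10; limma, Benjamini-Hochberg adjusted p = 0.816), and it turned to −0.02 without alone replicate 3. The interval excludes changes of the size of those in Vegfa, Angpt1 and Angptl2.

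Thbs1, which restrains endothelial cells and activates latent TGF-beta, had 210.7, 189.0 and 208.9 FPKM in co-culture and 184.3, 191.6 and 200.004 FPKM alone. The groups overlapped, and the log2 change was 0.08 (95% interval −0.03 to 0.18; limma, Benjamini-Hochberg adjusted p = 0.244). Thbs2, its close relative that also controls collagen fibril assembly, had 173.4, 165.8 and 172.3 FPKM in co-culture and 182.2, 187.8 and 196.0 FPKM alone. All co-culture libraries were lower. The means were 170.5 ± 4.11 FPKM in co-culture and 188.6 ± 6.94 FPKM alone (SD, n = 3 each), 1.11-fold lower, with a log2 change of −0.14 ± 0.04 (SE; 95% interval −0.23 to −0.06; limma, Benjamini-Hochberg adjusted p = 0.0154). This call was near the threshold: the adjusted p was 0.0575 with no filter on low genes, 0.0593 without co-culture replicate 2 and 0.0552 without alone replicate 3 (limma, Benjamini-Hochberg). Among all tested genes 35.1% changed by at least as much as Thbs2.

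**Figure D2:**
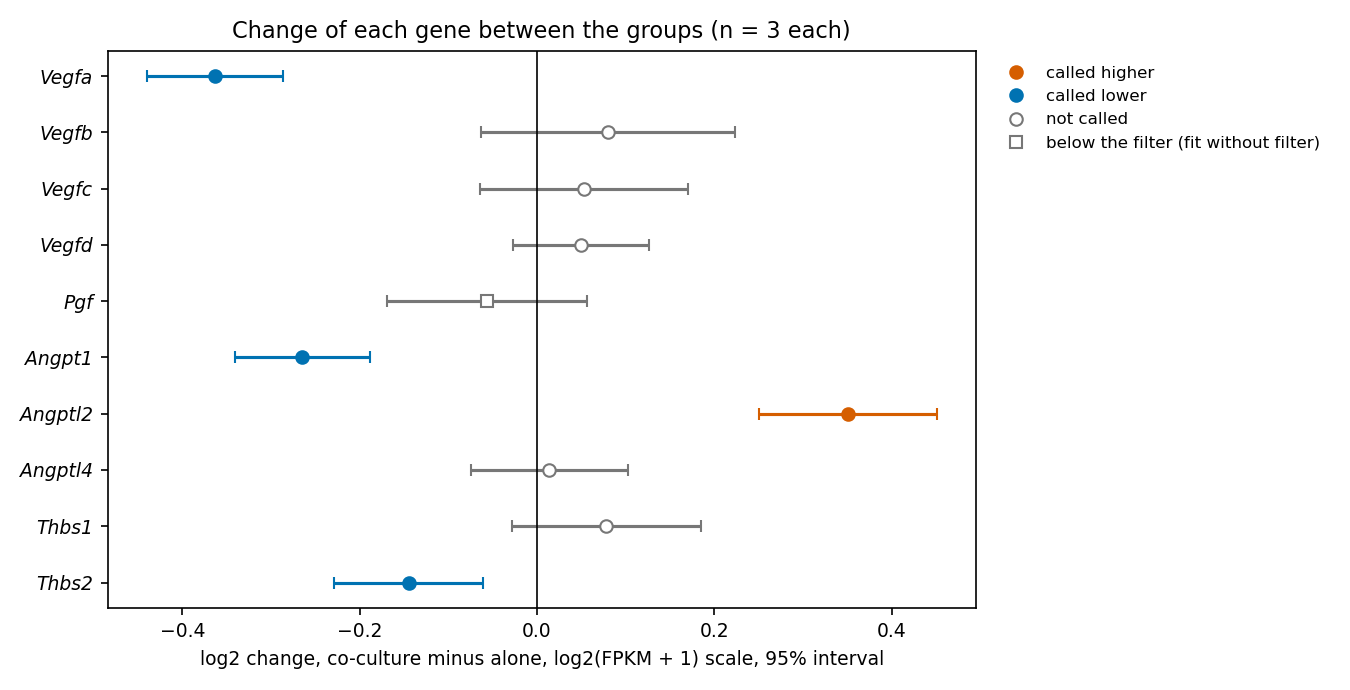
log2 change of each gene, co-culture minus alone, on the log2(FPKM + 1) scale, with the 95% interval from limma. Vegfa at −0.36, Angpt1 at −0.26 and Thbs2 at −0.14 lie left of 0, Angptl2 at 0.35 lies right of it, and the intervals of the other genes cross 0.

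Ratios taken within a library compare the genes with each other, independent of library scaling. The Thbs1 over Thbs2 log2 ratio was 0.25 ± 0.05 in co-culture and 0.02 ± 0.01 alone (SD, n = 3 each), a difference of 0.22. Vegfa over Thbs1, a growth factor set against an inhibitor, was −0.05 ± 0.07 in co-culture and 0.39 ± 0.02 alone, a difference of −0.44. On the linear scale this ratio was 0.965 in co-culture and 1.31 alone. Vegfa over Vegfb was 4.06 ± 0.10 in co-culture and 4.51 ± 0.10 alone, and Vegfa over Vegfc was 3.30 ± 0.06 in co-culture and 3.72 ± 0.13 alone. Angptl4 over Angptl2 was 2.42 ± 0.06 in co-culture and 2.76 ± 0.04 alone. The groups did not overlap in any of the 5 ratios. Each ratio contains Vegfa, Thbs2 or Angptl2, whose groups already stood apart on their own. The separation of the ratios is therefore not independent of those calls, and ratios of other gene pairs were not tested. The two-sided exact permutation p was 0.1 for each, the smallest that 3 libraries against 3 allow, and 0.1 after Benjamini-Hochberg adjustment over the 5, so this test could not reach 0.05.

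**Figure D3:**
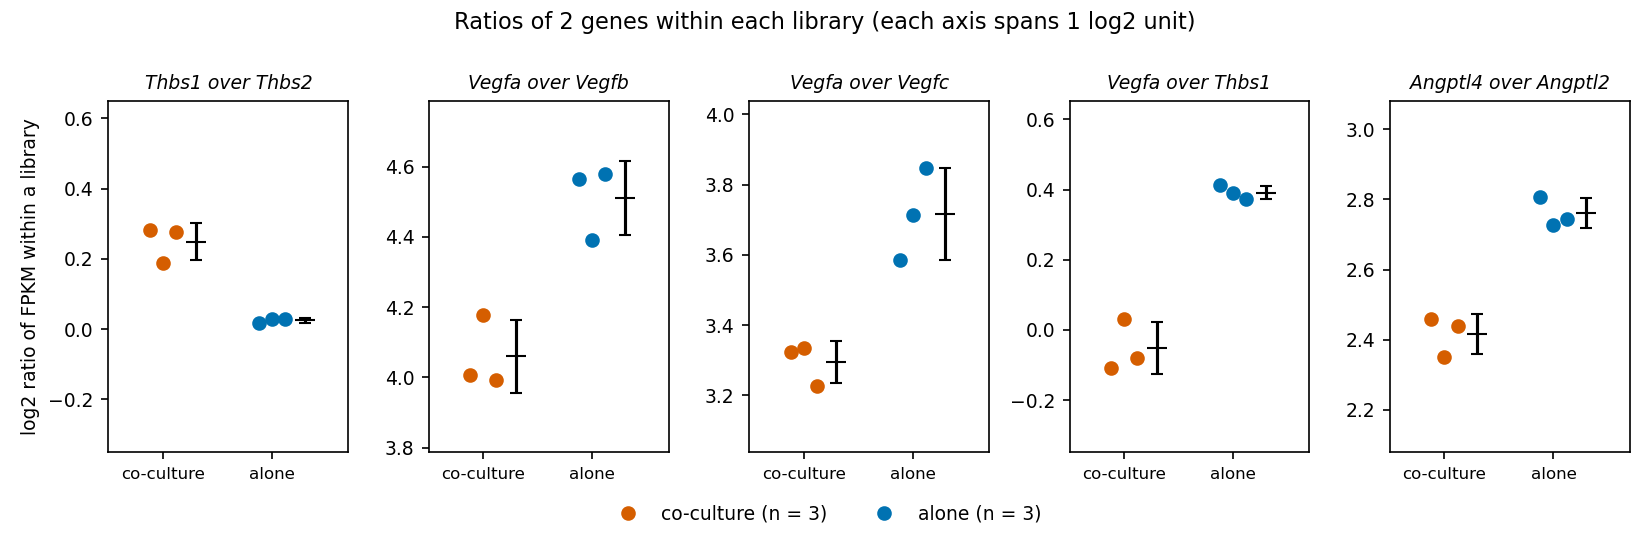
Within-library log2 ratios of FPKM for 5 pairs of genes, co-culture left of alone. Points are libraries and bars are means with SD (n = 3 per group). Thbs1 over Thbs2 is higher in co-culture and the other 4 ratios are lower, with no overlap between groups.

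Profiles over the 6 libraries were compared by the largest difference in log2(FPKM + 1) after each gene's mean was subtracted. The genes most like Vegfa were Selenoi (0.03), Rsbn1 (0.03) and Alcam (0.03). Those most like Angpt1 were Foxf1 (0.02), Osmr (0.03) and Mbnl1 (0.03), and those most like Angptl2 were Aebp1 (0.06), Trp63 (0.06) and Rhof (0.06). For Thbs2 they were Atad2b (0.02), Ippk (0.03) and Jpt2 (0.03), of which Jpt2 was called. The Jpt2 call did not hold under 10 of the alternatives.

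The receptors with testable levels in these cells were mainly integrins, proteoglycans and neuropilins. Of 12 tested receptors and co-receptors, 1 rose, 5 fell and 6 did not pass the test, with a median log2 change of −0.11. Beside this count and those of the lists below stand the shares over all tested genes, 13.9% called higher and 17.9% lower. No list was tested as a set. Itga5, the integrin subunit shared as a receptor by fibronectin and ANGPTL2, had 107.2, 108.1 and 110.3 FPKM in co-culture and 147.5, 150.004 and 143.3 FPKM alone. All co-culture libraries were lower, 1.35-fold by the means (log2 change −0.43; limma, Benjamini-Hochberg adjusted p = 9.77e-06). Cd47, a thrombospondin receptor, was 25.2 ± 0.81 FPKM in co-culture and 33.2 ± 0.87 FPKM alone (SD, n = 3 each), 1.32-fold lower (limma, Benjamini-Hochberg adjusted p = 5.61e-05). The heparan sulfate proteoglycan Sdc4 fell 1.16-fold, with an adjusted p of 0.0138 (limma, Benjamini-Hochberg) that was 0.1001 with no filter.

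Nrp1, a co-receptor of VEGFA, was 23.6 ± 0.33 FPKM in co-culture and 26.2 ± 1.12 FPKM alone (SD, n = 3 each), 1.11-fold lower (limma, Benjamini-Hochberg adjusted p = 0.0218). It lost its call with no filter and without co-culture replicate 1 or 3 or alone replicate 2 or 3, with adjusted p of 0.0568 to 0.0808 (limma, Benjamini-Hochberg). Its relative Nrp2 was 82.2 ± 1.88 FPKM in co-culture and 88.1 ± 5.94 FPKM alone (SD, n = 3 each) and was not called (limma, Benjamini-Hochberg adjusted p = 0.146), but passed without alone replicate 1 at 0.0165. Itgb3, which rose, and Itga6, the fifth that fell, were named after their values were seen. Their adjusted p were 0.036 and 0.0488 (limma, Benjamini-Hochberg) and the calls did not hold under 7 and 8 of the 14 alternatives. The count of falling receptors was 3 without co-culture replicate 1 or 3 or alone replicate 2 or 3, and 8 without alone replicate 1. The Itgb3 call was lost without co-culture replicate 1 or 2 or alone replicate 1 or 2.

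The endothelial signalling receptors that were analysed lay near the floor. Flt1, which encodes VEGFR1, had 11 reads in the 3 co-culture libraries and 17 in the 3 of cells alone. Tek, the Angpt1 receptor gene, had 0 reads in co-culture and 2 alone, and Cd36, the thrombospondin and fatty acid receptor, had 3 in co-culture and 3 alone. At these numbers no difference was detectable. Kdr and Flt4, which encode the main VEGFA and VEGFC receptors, were not analysed here.

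Of 5 tested angiopoietin, angiopoietin-like and thrombospondin genes outside the 10, 1 rose, 1 fell and 3 did not pass the test. Angpt4, another Tie2 ligand, had 18.7, 19.6 and 20.5 FPKM in co-culture and 17.2, 15.9 and 14.5 FPKM alone, 1.24-fold higher by the means (limma, Benjamini-Hochberg adjusted p = 0.00401). It thus rose where Angpt1 fell. Angptl6 was 0.817 ± 0.136 FPKM in co-culture and 1.37 ± 0.21 FPKM alone (SD, n = 3 each), 1.68-fold lower (limma, Benjamini-Hochberg adjusted p = 0.00685, and 0.0564 with no filter). At a filter of 5 FPKM Angptl6 was not tested and 0 genes of the list fell. Comp, a thrombospondin of cartilage matrix, lay below the filter and was named after its values were seen. It had 1.075, 1.012 and 1.178 FPKM in co-culture and 0.510, 0.718 and 0.607 FPKM alone, 1.78-fold higher by the means. In the fit without a filter its adjusted p was 0.0207 (limma, Benjamini-Hochberg), so that 2 genes of the list rose and 0 fell there.

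Of 11 other pro-angiogenic secreted factors tested, 1 rose, 3 fell and 7 did not pass the test, with a median log2 change of −0.11. Apln, whose product apelin acts on endothelial cells and is secreted by fat cells, had 5.47, 5.63 and 5.42 FPKM in co-culture and 10.9, 10.1 and 9.69 FPKM alone. The groups stood well apart: the means were 5.51 ± 0.11 FPKM in co-culture and 10.2 ± 0.64 FPKM alone (SD, n = 3 each), 1.86-fold lower (log2 change −0.79; limma, Benjamini-Hochberg adjusted p = 3.69e-06). Hgf, hepatocyte growth factor, fell 1.5-fold, to 7.23 ± 0.58 FPKM in co-culture against 10.8 ± 0.39 FPKM alone (SD, n = 3 each; limma, Benjamini-Hochberg adjusted p = 0.000102). Pdgfa, a mitogen for mesenchymal cells, fell 1.47-fold (limma, Benjamini-Hochberg adjusted p = 0.000774). Ecm1, a secreted matrix glycoprotein, had 256.1, 210.2 and 262.7 FPKM in co-culture and 196.9, 173.5 and 175.0 FPKM alone, 1.34-fold higher (limma, Benjamini-Hochberg adjusted p = 0.00278, and 0.0573 with no filter). The count of falling genes was 5 without co-culture replicate 3.

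Of 12 tested genes in a list drawn up as other anti-angiogenic secreted factors, 3 rose, 2 fell and 7 did not pass the test. Their median log2 change was 0.02. Timp2, a metalloproteinase inhibitor, had 211.7, 218.8 and 214.7 FPKM in co-culture and 171.1, 184.1 and 180.7 FPKM alone, 1.204-fold higher (limma, Benjamini-Hochberg adjusted p = 0.000491). Sema3f, a semaphorin that signals through Nrp2, rose 1.18-fold (limma, Benjamini-Hochberg adjusted p = 0.00244). Adamts1, a secreted protease that can bind VEGFA, had 188.6, 189.3 and 190.8 FPKM in co-culture and 263.9, 271.8 and 275.7 FPKM alone. It fell 1.43-fold (log2 change −0.51; limma, Benjamini-Hochberg adjusted p = 3.28e-06). Dcn, the matrix proteoglycan decorin, fell 1.24-fold (limma, Benjamini-Hochberg adjusted p = 0.00162). Vash2, the other gene that rose, was named after its values were seen (log2 change 0.24; limma, Benjamini-Hochberg adjusted p = 0.0204). It stood in this list although its product is known mainly as a pro-angiogenic factor. The Vash2 call was lost with no filter and without co-culture replicate 1 or 3 or alone replicate 1.

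Of 14 tested genes of oxygen sensing and other regulation of VEGFA, 1 rose, 6 fell and 7 did not pass the test, with a median log2 change of −0.08. Hif1a, the hypoxia-inducible subunit that activates VEGFA transcription, had 261.1, 242.5 and 249.3 FPKM in co-culture and 295.0, 303.4 and 312.5 FPKM alone. All co-culture libraries were lower, 1.21-fold by the means (limma, Benjamini-Hochberg adjusted p = 0.00059). These are transcript levels, and HIF-1 alpha is controlled chiefly through protein stability. Its relative Epas1 was 8.04 ± 0.37 FPKM in co-culture and 7.05 ± 0.77 FPKM alone (SD, n = 3 each), with an adjusted p of 0.0807 (limma, Benjamini-Hochberg). Epas1 passed with limma-voom on recovered reads (adjusted p = 0.0363) and without alone replicate 3 (adjusted p = 0.0158).

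Zfp36, whose protein binds AU-rich elements such as the nonamer shown for Vegfa and promotes decay of the transcript, had 13.6, 16.0 and 17.2 FPKM in co-culture and 70.0, 72.7 and 66.4 FPKM alone. No other gene in these lists stood as far apart between groups. It fell 4.46-fold, to 15.6 ± 1.85 FPKM in co-culture against 69.7 ± 3.16 FPKM alone (SD, n = 3 each; log2 change −2.09; limma, Benjamini-Hochberg adjusted p = 3.75e-08). Its relative Zfp36l1 fell 1.24-fold (limma, Benjamini-Hochberg adjusted p = 0.000301), and Atf4, a stress-response transcription factor that can activate VEGFA, fell 1.19-fold (limma, Benjamini-Hochberg adjusted p = 0.000614). The 1 gene that rose was Sp1, which binds GC boxes (1.15-fold; limma, Benjamini-Hochberg adjusted p = 0.0144, named after its values were seen). Its call was lost with no filter and without co-culture replicate 2, and without alone replicate 1 or 3 the count of rising genes was 2.

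The lipase that ANGPTL4 inhibits moved while Angptl4 itself did not pass the test. Of 6 tested genes of the lipoprotein lipase system, 0 rose, 2 fell and 4 did not pass the test, with a median log2 change of −0.06. Lpl had 195.3, 182.6 and 193.5 FPKM in co-culture and 222.5, 219.9 and 235.5 FPKM alone. It fell 1.19-fold (log2 change −0.25; limma, Benjamini-Hochberg adjusted p = 0.00135). Sel1l, needed for the lipase to leave the endoplasmic reticulum, fell 1.196-fold (limma, Benjamini-Hochberg adjusted p = 0.00124).

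Angptl4 is a known target of PPARs and of the glucocorticoid receptor, whose ligands were in the medium of both groups. Of 13 tested genes known as targets of these receptors, 3 rose, 4 fell and 6 did not pass the test, with a median log2 change of 0.01. Fkbp5, a chaperone induced by glucocorticoids, rose 1.13-fold, to 130.3 ± 3.69 FPKM in co-culture against 115.8 ± 2.20 FPKM alone (SD, n = 3 each; limma, Benjamini-Hochberg adjusted p = 0.00474). The other 3 named genes of the list, all induced by glucocorticoids, fell: Tsc22d3 1.14-fold, Sgk1 1.13-fold and Zbtb16 1.28-fold, with adjusted p of 0.00553, 0.00608 and 0.00236 (limma, Benjamini-Hochberg). Plin2 and Klf9, which also rose, and Per1, which also fell, were named after their values were seen. Klf9 lost its call without co-culture replicate 1. The Plin2 call was lost with no filter and under several other alternatives, and the Per1 call with TPM scaling and under several others. The count of rising genes was 1 without co-culture replicate 1. Pparg, the receptor of rosiglitazone, was below the filter at 0.565 ± 0.0989 FPKM in co-culture and 0.688 ± 0.074 FPKM alone (SD, n = 3 each), with an adjusted p of 0.337 in the fit without a filter (limma, Benjamini-Hochberg). Ppard was 15.8 ± 0.68 FPKM in co-culture and 17.2 ± 0.70 FPKM alone (SD, n = 3 each; limma, Benjamini-Hochberg adjusted p = 0.0791).

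Thrombospondins meet latent TGF-beta and matrix enzymes outside the cell. Of 11 tested genes of that group, 2 rose, 4 fell and 5 did not pass the test, with a median log2 change of −0.04. Tgfb1, the best studied of these growth factors, fell 1.21-fold, to 8.53 ± 0.59 FPKM in co-culture against 10.4 ± 0.56 FPKM alone (SD, n = 3 each; limma, Benjamini-Hochberg adjusted p = 0.0078, and 0.0542 with no filter). Adamts1 and Dcn, given above, also belong to this list. Tgfb2 fell 1.201-fold (limma, Benjamini-Hochberg adjusted p = 0.011). The 2 that rose, Ltbp2 and Mmp2, were named after their values were seen (1.10-fold and 1.09-fold; limma, Benjamini-Hochberg adjusted p = 0.04 and 0.031). Both calls were lost with no filter (adjusted p of 0.144 and 0.121), with a replicate block (0.0618 and 0.106; limma, Benjamini-Hochberg) and without co-culture replicate 1, 2 or 3 or alone replicate 2. The Ltbp2 call was also lost with TPM scaling, without the trend and without alone replicate 1, and the Mmp2 call without alone replicate 3.

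**Figure D4:**
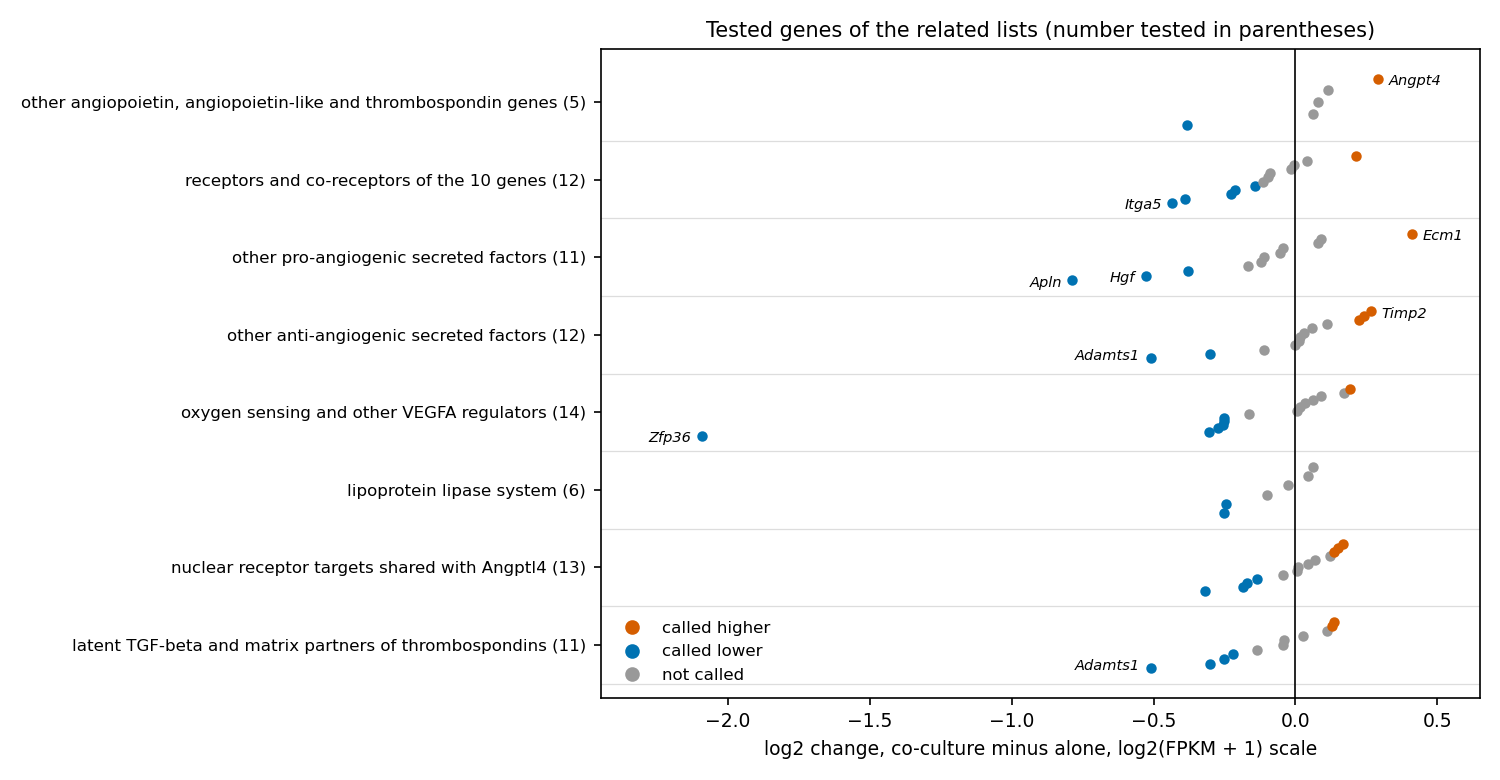
log2 change, co-culture minus alone, on the log2(FPKM + 1) scale, of every tested gene in the 8 related lists. Each point is a gene, coloured by its call (adjusted p below 0.05). Most points lie between −0.5 and 0.5, Zfp36 lies apart at −2.09, and Apln is next at −0.79.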

How the data were processed

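For each of 21436 mouse genes the authors deposited 1 FPKM value in each of 6 libraries. RNA came from a TRIzol extraction and libraries from the VAHTS Universal V6 kit, per the labels' protocols. Per the submitters' processing notes, fastp, HISAT2, HTSeq and mm10 were used. Versions, strand setting and the treatment of human reads are not given in the sources here. Whole reads were recovered from the steps of the FPKM values (100% of genes, tolerance 1e-06 on the ratios), which gave read numbers and library totals.

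The fit used limma 3.58.1 in R 4.3.3 (eBayes with its trend option) on log2(FPKM + 1). It took the 10055 genes averaging 1 FPKM or more, and 11381 genes were not tested. Fold changes on this scale understate those of low genes; printed folds are ratios of mean FPKM. Named were all 10 genes, up to 4 called genes of each related list by smallest p, genes listed for their role, and 3 similar genes per called gene. The genes and lists were chosen with earlier results of these data known. A single listed gene is not reported here. The fit was tested on simulated data with a dispersion of 0.00148. It recovered 74% of 1.25-fold changes and 98% of 1.5-fold changes, and 5.10% of its calls fell on unchanged genes. Alternatives were pseudocount, filter, scaling, no trend, limma-voom on recovered reads, a replicate block and leaving out each library. Promoters came from RefSeq and untranslated regions from GENCODE M21.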

Additional observations from a re-analysis of the deposited data

How the results depend on the processing

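Vegfa, Angpt1 and Angptl2 kept their direction and call under all 14 alternatives, with log2 changes of −0.38 to −0.34, −0.28 to −0.25 and 0.31 to 0.38 and highest adjusted p of 0.00251, 0.00498 and 0.0109 (limma, Benjamini-Hochberg). Thbs2 lost its call with no filter (−0.14, adjusted p = 0.0575; limma, Benjamini-Hochberg) and when co-culture replicate 2 or alone replicate 3 was left out, with a leave-one-out range of −0.17 to −0.12. Angptl4, not called, had a leave-one-out range of −0.024 to 0.040, and the sign turned without alone replicate 3. Signs also turned for 2 genes with few reads: Cd36 at −0.0034 without co-culture replicate 3 and −0.0038 without alone replicate 1 (range −0.0038 to 0.0060), and Flt1 at 0.0011 without alone replicate 3 (range −0.0080 to 0.0011). The cause was not tested. Leaving out 1 library gave 925 to 1419 genes called higher, 925 without co-culture replicate 3, against 1402 with all libraries. No filter gave 937 higher and 1251 lower, a filter of 5 FPKM 993 and 1434, and limma-voom on recovered reads 1492 and 1911; Pgf had no value at a filter of 5 FPKM.

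With a replicate block, 1258 genes were called higher and 1640 lower, and the calls among the 10 genes were 1 higher and 3 lower, as without it. The replicate numbers showed no pairing of the libraries: correlations of same-numbered deviations were −0.04, 0.11 and −0.08. Not every library correlated best with its own number. With 3 libraries per group, such weak values cannot exclude a pairing. With no filter, 2 of the receptors were called lower in place of 5, and none higher. Depth limited Pgf, Flt1, Tek and Cd36, which had few reads.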
